A study of Mus musculus with 18 samples.

Results

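RNA levels of 9 genes of the adenosine and cyclic AMP (cAMP) pathway were measured in CD4+ T cells from the spleen of Tg4 mice, in naive and tolerized cells at rest and after stimulation. The genes were listed by name, with earlier results of these data known. The list holds the ectonucleotidases Entpd1 and Nt5e, the adenosine receptor Adora2a and the cAMP phosphodiesterases Pde3b, Pde4b, Pde4d and Pde7a. It also holds the kinase subunit Prkaca and the transcription factor Crem. These genes are 9 of the 37991 in the count tables. All 9 passed the limit on low counts (a group mean of 3 or more normalized counts in any of the 6 groups).

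Mice of the strain Tg4-H2u, males and females aged 6 to 12 weeks, carry a transgenic TCR for a peptide of myelin basic protein. Tolerized mice had received 7 subcutaneous doses of the 4Y peptide, in amounts that rose to 80 µg, and control mice had received PBS on the same schedule. Resting cells of control and tolerized mice (N0 and T0) were taken 2 h after a last injection of PBS, and Ag-stimulated cells (NAg and TAg) 2 h after a last injection of 80 µg of peptide. PI-stimulated cells (NPI and TPI) were purified and then kept for 2 h in culture with 20 ng/mL PMA and 2 µM calcium ionophore A23187, which act downstream of the TCR. Each of the 6 groups has 3 libraries, called biological replicates. The animals behind each library are not named, so p-values measure the spread between these libraries. No group was cultured without PI, so effects of PI and of the culture cannot be told apart.

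Extracellular ATP is cut to AMP by CD39, the product of Entpd1, and AMP to adenosine by CD73, the product of Nt5e. Both enzymes are known from regulatory T cells. Adenosine binds the receptor encoded by Adora2a, which raises cAMP through adenylyl cyclases. cAMP releases the catalytic subunits of protein kinase A (PKA), among them the product of Prkaca, and phosphodiesterases break cAMP down. PKA acts on factors that bind the cAMP response element (CRE), and the Crem gene gives activators as well as the short repressor ICER. In T cells, cAMP is known to dampen signals from the TCR.

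Here, 10 promoters of 5 of the genes were taken from the RefSeq promoter table (build GRCm38.p6, 250 bases before to 50 after each start). They belong to Entpd1, Nt5e, Pde4b, Pde4d and Prkaca, and any promoter of Crem was left out. Both strands were searched for the full CRE TGACGTCA, its core TGACG (read as CGTCA on the other strand), the AP-1 motif TGANTCA and the NFAT core GGAAA. A core lies within every full CRE. Of all 32851 promoters in the table, 1.79% hold a full CRE, 20.8% a core, 7.81% an AP-1 motif and 61.3% an NFAT core. None of the 10 promoters holds the letters of a full CRE or of AP-1 in this window, 4 hold a core and 6 an NFAT core. The following 3 are shown because the levels of Nt5e covered the widest range and because Pde4b and Prkaca, which PI moved in opposite directions, carry cores. They are chr9:88327359-88327658, chr4:102421305-102421604 (the first of 4 Pde4b promoters) and chr8:83972728-83973027 (the first of 2), all on the plus strand and written 5′ to 3′, with CRE cores in capitals.
Nt5e: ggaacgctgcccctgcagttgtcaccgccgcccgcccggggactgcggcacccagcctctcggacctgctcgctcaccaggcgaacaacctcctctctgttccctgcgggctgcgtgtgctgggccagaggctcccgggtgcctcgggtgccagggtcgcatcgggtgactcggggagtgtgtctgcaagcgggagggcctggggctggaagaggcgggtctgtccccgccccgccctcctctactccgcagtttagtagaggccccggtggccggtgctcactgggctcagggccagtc
Pde4b: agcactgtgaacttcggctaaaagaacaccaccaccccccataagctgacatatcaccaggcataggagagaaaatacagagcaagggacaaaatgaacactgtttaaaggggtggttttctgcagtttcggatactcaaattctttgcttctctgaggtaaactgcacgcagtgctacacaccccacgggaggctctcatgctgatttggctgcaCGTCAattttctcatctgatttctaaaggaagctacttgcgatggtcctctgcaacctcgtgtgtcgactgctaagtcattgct
Prkaca: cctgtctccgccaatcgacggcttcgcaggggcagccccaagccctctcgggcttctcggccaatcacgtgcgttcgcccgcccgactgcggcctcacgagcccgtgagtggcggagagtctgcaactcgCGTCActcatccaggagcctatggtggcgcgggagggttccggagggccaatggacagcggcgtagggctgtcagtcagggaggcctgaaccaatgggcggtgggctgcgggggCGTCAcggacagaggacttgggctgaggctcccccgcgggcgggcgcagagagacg
The core of Pde4b starts at position -34 from the start of transcription, and those of Prkaca at -120 and -6. The other promoters of Pde4b and Prkaca hold no core, and which starts these cells use was not tested. Both promoters of Entpd1 hold 1 core each, at -135 and -183. These matches are letters in a window and carry no test.

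Total counts ranged from 10758571 to 24119489 per library, with a median of 12268936. Values below are normalized counts, a count divided by the TMM-scaled size of its library relative to the geometric mean over the 18 libraries, and 3 values in a row are replicates 1, 2 and 3. Log2 fold changes come from 1 edgeR model of all 18 libraries, and p-values were adjusted by the Benjamini-Hochberg method over 17240 tested genes. A gene was called at an adjusted p under 0.05. The markers of CD4 T cells were abundant in all libraries, with Cd4 at 6943 in N0 and 5154 in T0 on average. Among the 8 markers, 1, 5 and 2 were called higher and 2, 1 and 3 lower in tolerized cells at rest, after Ag and after PI. Of 2 CD8 T cell markers, 1, 1 and 2 were called lower in tolerized cells at rest, after Ag and after PI, and Cd8b1 had means of 205 in N0 and 79.2 in T0, 107 in NAg and 43.8 in TAg, and 151 in NPI and 55.3 in TPI. The part of CD8 T cells in the results was not tested. The summed level of 16 myeloid markers was 1148 to 1727 in N0 and 4481 to 6246 in T0, 1105 to 2632 in NAg and 3848 to 6447 in TAg, and 719.8 to 1015 in NPI and 1126 to 1408 in TPI, and 9, 9 and 5 of the 16 were called higher in tolerized cells at rest, after Ag and after PI, respectively. After Ag, 2 of the 16 were called lower in tolerized cells, so the myeloid markers did not all move in 1 direction. The neutrophil genes Camp, Ltf and Ngp were at 0 in every NPI library. Of 11 erythroid markers, 3, 2 and 0 were higher in these comparisons, and T0 replicate 1 and TAg replicate 3 had the highest sums (2556 and 1633). Of 10 B cell markers, edgeR called 0 in tolerized against naive cells (0, 1 and 0 at an unadjusted p under 0.05, and 0, 1 and 0 by DESeq2, at rest, after Ag and after PI). Of 5 NK cell markers it also called 0 (1, 1 and 2 unadjusted, and 1, 1 and 2 by DESeq2). The sums of 4 Y-linked genes lay between 5236 and 8965 in all NPI and TPI libraries, T0 replicates 1 and 2 and TAg replicate 3, and were at most 21.5 in the others. Y-linked reads thus go with PI between NPI and N0, where effects of PI and of sex cannot be told apart. Between TPI and T0 they go with PI only in part.

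**Figure D1:**
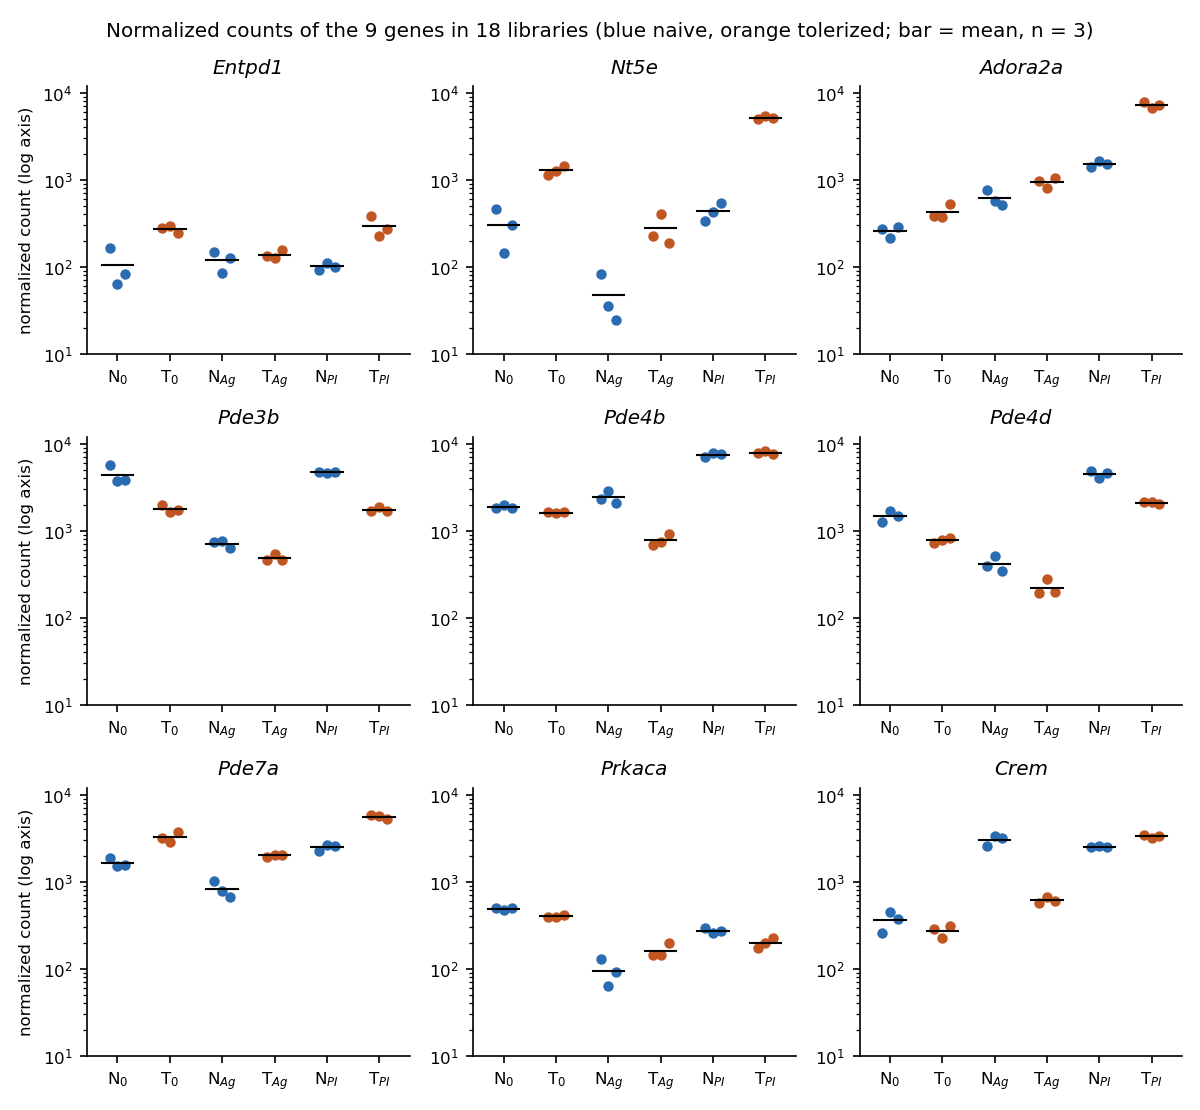
Normalized count (log axis) of each of the 9 genes in the 3 libraries of each group, with naive cells in blue, tolerized cells in orange and the group mean as a bar. Nt5e covers the widest range, with a mean of 47.4 in NAg and 5206 in TPI, and Pde4d has 6 groups that do not overlap between neighbours in the order of their means.

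Nt5e, which makes adenosine, the adenosine receptor Adora2a and Pde7a were called higher in tolerized cells at rest, after Ag and after PI, and Pde3b and Pde4d lower. Entpd1 was higher at rest and after PI but was not called after Ag. At rest (T0:N0), 4 of the 9 genes were higher and 2 lower, against 8.42% and 12% of all tested genes. After Ag (TAg:NAg), 4 were higher and 4 lower, against 20.9% and 18.5%. After PI (TPI:NPI), 5 were higher and 3 lower, against 18.2% and 19.7%. Counted in either direction, these are 6, 8 and 8 of the 9 genes, against 20.4%, 39.4% and 37.9%. With a minimum fold of 2 and a mean count above 50 in the higher group, 3, 4 and 6 were called, against 3.25%, 5.66% and 5.60%. The libraries of naive and tolerized cells did not overlap for 8 of the 9 genes in each comparison, against 35.0%, 47.7% and 50.5% of all tested genes. The median log2 fold change of the 9 genes was -0.23, 0.20 and 0.39 in these comparisons, beside -0.08, 0.01 and -0.04 over all tested genes.

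**Figure D2:**
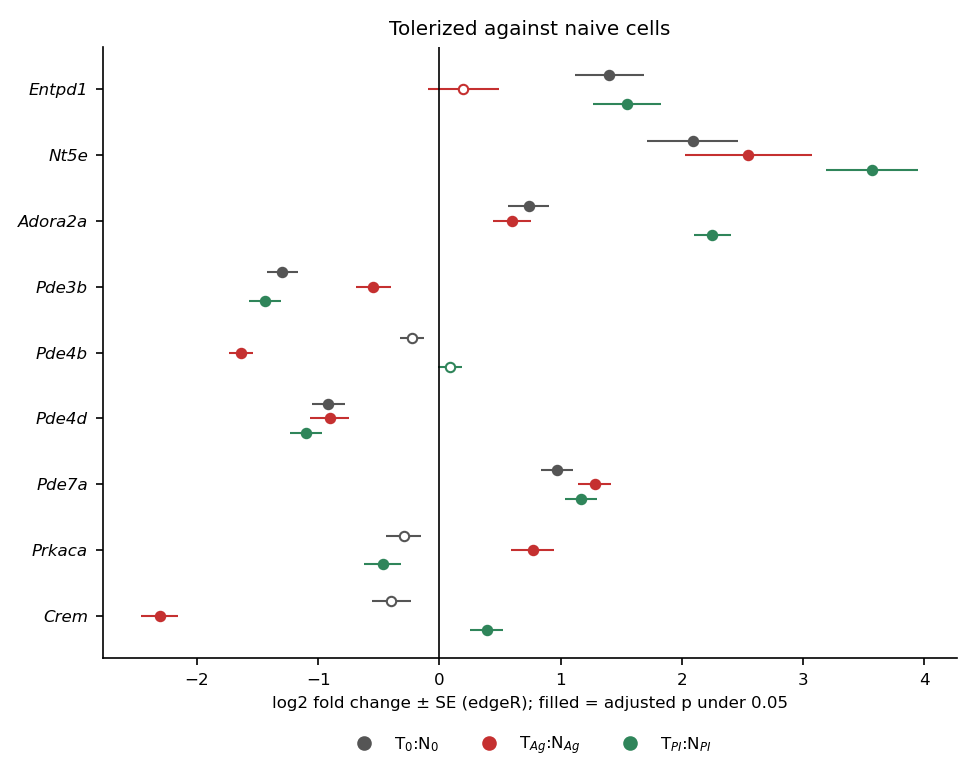
Log2 fold change of each gene in tolerized against naive cells, with its standard error, at rest (grey), after Ag (red) and after PI (green), and filled points called by edgeR. Nt5e and Adora2a are furthest to the right after PI (3.57 and 2.25), and Pde4b and Crem are furthest to the left after Ag (-1.64 and -2.31).

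Nt5e (chromosome 9, 88222447 to 88266927, plus strand, build mm9/NCBIM37), which encodes CD73, differed most between the cell states. At rest its counts were 459.6, 145 and 301 in N0 and 1137, 1270.1 and 1463 in T0, so that every T0 library lay above every N0 library. The T0 level was 4.26-fold higher (log2 fold change 2.09 ± 0.37 SE, edgeR adjusted p = 0.00189). Whether more cells of a type with high Nt5e or more RNA per cell gave this difference cannot be told apart in bulk RNA. After Ag, Nt5e fell in naive cells to 82.7, 35.2 and 24.2 (log2 fold change -2.69 ± 0.52 SE, edgeR adjusted p = 0.000426) and in tolerized cells to 229, 410.1 and 189.5 (log2 fold change -2.23 ± 0.38 SE, edgeR adjusted p = 0.000187). All NAg libraries were below all N0 libraries and all TAg libraries below all T0 libraries. TAg remained 5.85-fold above NAg (log2 fold change 2.55 ± 0.52 SE, edgeR adjusted p = 0.00182). After PI, counts were 336, 429.9 and 542 in NPI, which overlapped N0 (log2 fold change 0.53 ± 0.38 SE, edgeR adjusted p = 0.252). In TPI they were 5011, 5477 and 5129.7, all above those of the other 5 groups and 4.04-fold above T0 (log2 fold change 2.01 ± 0.35 SE, edgeR adjusted p = 0.000184). TPI was 11.9-fold above NPI (log2 fold change 3.57 ± 0.38 SE, edgeR adjusted p = 7.7e-06). The order of means was TPI, T0, NPI, N0, TAg and NAg, in which NPI and N0 overlapped, and N0 and TAg.

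Entpd1 (chromosome 19, 40686856 to 40816092, plus strand), which encodes CD39, had the lowest level per kilobase of exon of the 9 genes in N0. Its counts were 164, 63.7 and 83.3 in N0 and 282, 298 and 246 in T0, without overlap and 2.64-fold higher in T0 (log2 fold change 1.40 ± 0.28 SE, edgeR adjusted p = 0.00274). They were 92.6, 111 and 99.3 in NPI and 381, 227 and 274 in TPI, again without overlap (log2 fold change 1.55 ± 0.28 SE, edgeR adjusted p = 0.000438). After Ag the states overlapped, with 149, 85.8 and 126 in NAg and 132, 126 and 155 in TAg (log2 fold change 0.20 ± 0.29 SE, edgeR adjusted p = 0.64, 95% interval -0.44 to 0.84). Ag lowered Entpd1 in tolerized cells (log2 fold change -1.0 ± 0.28 SE, edgeR adjusted p = 0.00562), while naive cells gave 0.21 (adjusted p = 0.566). The naive change was called without N0 replicate 1 (0.66, adjusted p = 0.0194), and the tolerized one was not within libraries free of Y-linked reads (-0.96, adjusted p = 0.106). No change was called after PI, with -0.04 in naive (95% interval -0.70 to 0.61) and 0.10 in tolerized cells (-0.47 to 0.67). N0 replicate 1 had the highest and N0 replicate 2 the lowest count of their group for both Entpd1 and Nt5e.

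Levels of Nt5e and Entpd1 can be set beside the markers of other cells. The summed level of 6 genes marking regulatory T cells was 2001 to 4272 in N0 and 8493 to 10364 in T0, and 7709 to 9059.7 in NPI and 22272 to 26863 in TPI. After Ag it was 26506 to 31476 in NAg and 34557.5 to 35471 in TAg, where Nt5e was lower than at rest. Il2ra alone had means of 24759 in NAg and 22561 in TAg. Of the 6, 5 were called higher at rest, 3 after Ag and 6 after PI, and none was at 0 throughout a group. Foxp3, which defines these cells, was at 368, 148 and 275 in N0 and 776, 1043 and 339.5 in T0, with overlap (log2 fold change 1.45 ± 0.43 SE, edgeR adjusted p = 0.0336). Its counts in N0 were highest in replicate 1 and lowest in replicate 2, like those of Nt5e and Entpd1. This order was not particular to Foxp3. The mean log2 levels of the myeloid, erythroid and B cell markers had it too, with B cell scores of 0.84, -1.13 and -0.97. NK cell markers were also highest in replicate 1 but lowest in replicate 3. In T0 the order differed for Nt5e, since replicate 3 had the least Foxp3 and the most Nt5e. Entpd1 was, like Foxp3, highest in replicate 2 and lowest in replicate 3, and so were Ikzf2 and Il2ra. The other markers of the list, Folr4, Nrp1 and Tnfrsf18, were in T0 highest in replicate 3 and lowest in replicate 1, like Nt5e. The list includes Il2ra, which activated T cells also express. With myeloid and erythroid marker scores in the model, 0 of the 9 genes were called in T0:N0 by edgeR (2 at an unadjusted p under 0.05), and Nt5e had a log2 fold change of -0.16 ± 1.36 SE. The standard error without the scores was 0.37, and the myeloid sums of N0 and T0 do not overlap. After Ag, Crem and Pde4b were called in this model, and Nt5e had 0.77 ± 1.10. After PI, it gave Nt5e 3.26, Entpd1 1.20 and Adora2a 2.12 in TPI:NPI (adjusted p = 0.000284, 0.0126 and 3.63e-06), and all 8 calls were kept. The part of regulatory T cells in these results was not tested.

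Within libraries free of Y-linked reads, T0 replicate 3 against N0 and TAg replicates 1 and 2 against NAg, Nt5e gave 2.27 at rest and 2.78 after Ag (adjusted p = 0.0221 and 0.00528). This comparison was added after the data were seen, and the lone T0 library is assumed to vary like the other groups. Of the 6 genes called in T0:N0, 5 were called, the exception being Entpd1 (1.23, adjusted p = 0.11). Of the 8 in TAg:NAg, 7 were called, the exception being Pde3b (-0.48, adjusted p = 0.052). All NPI and TPI libraries carry Y-linked reads, so that TPI:NPI does not set libraries with such reads against libraries without them.

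Adora2a (chromosome 10, 74779688 to 74797533, plus strand) encodes the receptor through which adenosine raises cAMP. Its counts were 270.4, 212 and 287 in N0 and 380.3, 379 and 525 in T0, without overlap (log2 fold change 0.74 ± 0.17 SE, edgeR adjusted p = 0.00664). Ag raised it to 771, 574 and 520.2 in naive cells (log2 fold change 1.27 ± 0.17 SE, edgeR adjusted p = 5.45e-06) and to 963, 808 and 1051 in tolerized cells (log2 fold change 1.14 ± 0.16 SE, edgeR adjusted p = 1.13e-05). All TAg libraries were above all NAg libraries (log2 fold change 0.60 ± 0.16 SE, edgeR adjusted p = 0.00671). The responses to PI were larger. NPI libraries had 1424, 1641 and 1511 (log2 fold change 2.57 ± 0.17 SE, edgeR adjusted p = 1.54e-09), and TPI libraries had 7863, 6720.4 and 7203, 17.0-fold above T0 (log2 fold change 4.09 ± 0.17 SE, edgeR adjusted p = 3.05e-12). TPI exceeded NPI 4.76-fold (log2 fold change 2.25 ± 0.15 SE, edgeR adjusted p = 1.58e-08). The other adenosine receptors were low on the same scale. Adora2b had a mean of 2.71 in N0 and 28.4 in TPI, Adora3 had group means of at most 8.47, and Adora1 had no count outside TPI.

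The 4 phosphodiesterases differed in direction. Pde3b (chromosome 7, 121558795 to 121682765, plus strand), an enzyme that cGMP inhibits, was the highest of the 4 in N0 per kilobase of exon. N0 libraries had 5658, 3762 and 3804 and T0 libraries 1995, 1660.5 and 1733, a 2.45-fold lower level without overlap (log2 fold change -1.30 ± 0.13 SE, edgeR adjusted p = 4.31e-06). Ag lowered Pde3b in both states, to 738, 772 and 632 in NAg (log2 fold change -2.63 ± 0.14 SE, edgeR adjusted p = 1.05e-11) and to 463, 547 and 459 in TAg (log2 fold change -1.88 ± 0.14 SE, edgeR adjusted p = 1.86e-09). TAg was below NAg (log2 fold change -0.54 ± 0.14 SE, edgeR adjusted p = 0.0056). After PI, levels overlapped those at rest, with 4809.8, 4609.6 and 4776 in NPI and 1672, 1892 and 1687 in TPI. The changes were 0.10 and -0.04 (adjusted p = 0.51 and 0.804), the first of which was called without N0 replicate 1 (0.28). The difference between the states was of the size seen at rest (log2 fold change -1.44 ± 0.13 SE, edgeR adjusted p = 1.81e-07).

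Pde4d (chromosome 13, 109240142 to 110743669, plus strand), a cAMP-specific enzyme of the family that rolipram inhibits, was about as much lower in tolerized cells in each of the 3 conditions. It was at 1268, 1678 and 1479 in N0 and 726, 779 and 837 in T0 (log2 fold change -0.92 ± 0.14 SE, edgeR adjusted p = 0.000195). NAg had 392, 509.9 and 343 and TAg 194, 277 and 196 (log2 fold change -0.91 ± 0.16 SE, edgeR adjusted p = 0.000252). NPI had 4927, 4023 and 4639 and TPI 2148, 2139 and 2050.1 (log2 fold change -1.10 ± 0.13 SE, edgeR adjusted p = 4.93e-06). No group overlapped its neighbour in the order NPI, TPI, N0, T0, NAg and TAg. Pde4d fell after Ag, with log2 fold changes of -1.83 in naive and -1.82 in tolerized cells, and rose after PI, with 1.62 and 1.44 (adjusted p = 3.95e-09, 1.3e-08, 1.36e-08 and 5.79e-08).

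The symbol Pde4d is also given to a short gene (ENSMUSG00000074661, chromosome 13, 110744317 to 110746171) that lies just past the 3′ end of the main one (ENSMUSG00000021699). Its values after PI were unlike those of the main gene, a difference that was not tested. Counts of the short gene were 213, 261 and 239 in N0 and 186, 200.1 and 221 in NPI, with overlap (log2 fold change -0.23 ± 0.16 SE, edgeR adjusted p = 0.208), where the main gene rose 3.07-fold. TPI had 186, 212 and 174, above the 112, 142 and 155 of T0 (log2 fold change 0.48 ± 0.16 SE, edgeR adjusted p = 0.0109), and the response to PI differed between the states (0.70, adjusted p = 0.026). At rest the short gene was lower in tolerized cells, as was the main gene (log2 fold change -0.80 ± 0.16 SE, edgeR adjusted p = 0.000909). The state difference after PI was -0.09 (adjusted p = 0.69) against -1.10 for the main gene. After Ag, both fell in naive cells, with -2.16 for the short gene (adjusted p = 9.47e-11). Its state difference after Ag was not called and the libraries overlapped (-0.50, edgeR adjusted p = 0.0666), against -0.91 for the main gene.

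Pde4b (chromosome 4, 101760148 to 102279864, plus strand), of the same family as Pde4d, differed between the states after Ag. At rest its counts were 1848, 2006 and 1853 in N0 and 1634, 1591 and 1653 in T0, which do not overlap but were not called different (log2 fold change -0.23 ± 0.10 SE, edgeR adjusted p = 0.108). Ag raised Pde4b in naive cells to 2301, 2899 and 2099.5 (log2 fold change 0.35 ± 0.10 SE, edgeR adjusted p = 0.00284) and lowered it in tolerized cells to 694, 739 and 911 (log2 fold change -1.06 ± 0.10 SE, edgeR adjusted p = 3.64e-09). TAg was 3.11-fold below NAg (log2 fold change -1.64 ± 0.10 SE, edgeR adjusted p = 4.1e-11). PI raised it in both states to overlapping levels, 6986, 7829 and 7572 in NPI and 7850.4, 8216 and 7724 in TPI. These correspond to log2 changes of 1.97 and 2.29 (adjusted p = 8.08e-14 and 3.63e-15). The state difference after PI was 0.09 with a 95% interval of -0.12 to 0.29 (adjusted p = 0.52).

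Pde7a (chromosome 3, 19123108 to 19211322, minus strand), a cAMP-specific enzyme that rolipram does not inhibit, was the only one of the 4 that was called higher in tolerized cells. N0 libraries had 1895, 1509.6 and 1563 and T0 libraries 3159, 2875 and 3718 (log2 fold change 0.97 ± 0.13 SE, edgeR adjusted p = 7.46e-05). After Ag there were 1037, 786 and 663 in NAg and 1917, 2059 and 2055 in TAg (log2 fold change 1.28 ± 0.14 SE, edgeR adjusted p = 1.42e-06). After PI there were 2249.9, 2625 and 2609 in NPI and 5844, 5726 and 5252 in TPI (log2 fold change 1.17 ± 0.13 SE, edgeR adjusted p = 1.97e-06). No group overlapped its neighbour in the order TPI, T0, NPI, TAg, N0 and NAg. Ag lowered Pde7a in both states (-1.0 in naive and -0.69 in tolerized cells), and PI raised it (0.59 and 0.79). The adjusted p was 4.02e-06, 0.000175, 0.000832 and 3.73e-05, respectively. Pde7a shares 48 exonic bases with Gm16093 on the other strand, and the strand setting of the counting is not given in the sources used here, so reads in these bases are uncertain.

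Prkaca (chromosome 8, 86496877 to 86520344, plus strand), which encodes the catalytic subunit alpha of PKA, was lower after both stimuli. Counts were 502, 472 and 501 in N0 and 393, 398 and 411 in T0 (log2 fold change -0.29 ± 0.15 SE, edgeR adjusted p = 0.165). Ag lowered it to 129, 63.4 and 91.3 in NAg (log2 fold change -2.38 ± 0.17 SE, edgeR adjusted p = 1.75e-11) and to 143, 143 and 197 in TAg (log2 fold change -1.31 ± 0.16 SE, edgeR adjusted p = 1.62e-07), which left TAg above NAg (log2 fold change 0.77 ± 0.18 SE, edgeR adjusted p = 0.00142). PI lowered it to 294, 261 and 272 in NPI (log2 fold change -0.84 ± 0.15 SE, edgeR adjusted p = 4.31e-05) and to 174, 199 and 225 in TPI (log2 fold change -1.01 ± 0.15 SE, edgeR adjusted p = 3.93e-06). TPI was below NPI (log2 fold change -0.47 ± 0.15 SE, edgeR adjusted p = 0.0198), a call that was lost without NPI replicate 1, TPI replicate 1 or TPI replicate 2 (log2 fold change -0.41, -0.35 and -0.46).

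Crem (chromosome 18, minus strand) rose after both stimuli and differed most between the states after Ag. At rest the states overlapped, with 261, 447 and 374 in N0 and 288, 225 and 307 in T0 (log2 fold change -0.40 ± 0.16 SE, edgeR adjusted p = 0.0974). This difference was called without N0 replicate 1 (-0.59, adjusted p = 0.00159) and by DESeq2 (adjusted p = 0.0474). Ag raised Crem to 2559, 3363 and 3204 in naive cells, 8.45-fold (log2 fold change 3.08 ± 0.16 SE, edgeR adjusted p = 1.44e-11). In tolerized cells it rose to 574, 665 and 603, 2.25-fold (log2 fold change 1.17 ± 0.16 SE, edgeR adjusted p = 6.09e-06), and TAg was 4.96-fold below NAg (log2 fold change -2.31 ± 0.15 SE, edgeR adjusted p = 7.22e-09). After PI, NPI had 2537, 2582 and 2528 (log2 fold change 2.82 ± 0.15 SE, edgeR adjusted p = 9.66e-11) and TPI had 3447, 3218 and 3344 (log2 fold change 3.61 ± 0.16 SE, edgeR adjusted p = 3.49e-12). TPI was above NPI (log2 fold change 0.39 ± 0.14 SE, edgeR adjusted p = 0.0365), without overlap, but this call was lost with any 1 of the 6 libraries left out (log2 fold change 0.38 to 0.41, adjusted p up to 0.0902). Crem shares 103 exonic bases with Gm6225 on the other strand and has the same uncertainty as Pde7a. Gene counts do not separate ICER from the longer forms of Crem.

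Per kilobase of merged exons (RPKM, scaled by TMM), the 9 genes can be set beside each other. In N0, Pde3b was the highest (46.8 ± 11.5, SD, n = 3) and Entpd1 the lowest (1.36 ± 0.701). In T0, Pde7a (30.7 ± 4.05) and Nt5e (26.4 ± 3.34) were the highest. In NAg, Crem was first (37.5 ± 5.25) and Nt5e last (0.969 ± 0.636), and in TAg, Adora2a was first (27.2 ± 3.55). In TPI, Adora2a (209.8 ± 16.6) and Nt5e (106 ± 4.95) stood above the other 7 genes, of which Pde4b had the highest mean (55.0 ± 1.77). In NPI, Pde4b (51.7 ± 3.00) and Pde3b (50.2 ± 1.14) led.

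Each stimulus moved most of the 9 genes in both cell states, as it did most of all tested genes. Ag raised 3 and lowered 5 in naive cells, against 32.1% and 33.4% of all tested genes, and raised 2 and lowered 7 in tolerized cells, against 29.9% and 29.8%. PI raised 5 and lowered 1 in naive cells, against 28.6% and 32.7%, and raised 6 and lowered 1 in tolerized cells, against 32.0% and 36.3%. In either direction, Ag moved 8 genes in naive and 9 in tolerized cells, against 65.5% and 59.8%, and PI moved 6 and 7, against 61.4% and 68.3%. With a minimum fold of 2 and a mean count above 50, Ag moved 7 and 7, against 30.3% and 23.4%, and PI moved 4 and 6, against 20.3% and 27.1%. Stimulated and resting libraries did not overlap for 8 and 9 genes after Ag, against 68.1% and 64.5%, and for 6 and 7 after PI, against 66.4% and 72.5%. The median log2 fold change of the 9 was -1.0 and -1.06 after Ag and 0.59 and 1.44 after PI, in naive and tolerized cells. The medians over all tested genes were 0.00, -0.05, -0.06 and -0.10. The 2 stimuli are compared with the same resting libraries, so these counts are not independent. TPI:T0 called 7 genes also without T0 replicate 3, the T0 library without Y-linked reads.

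**Figure D3:**
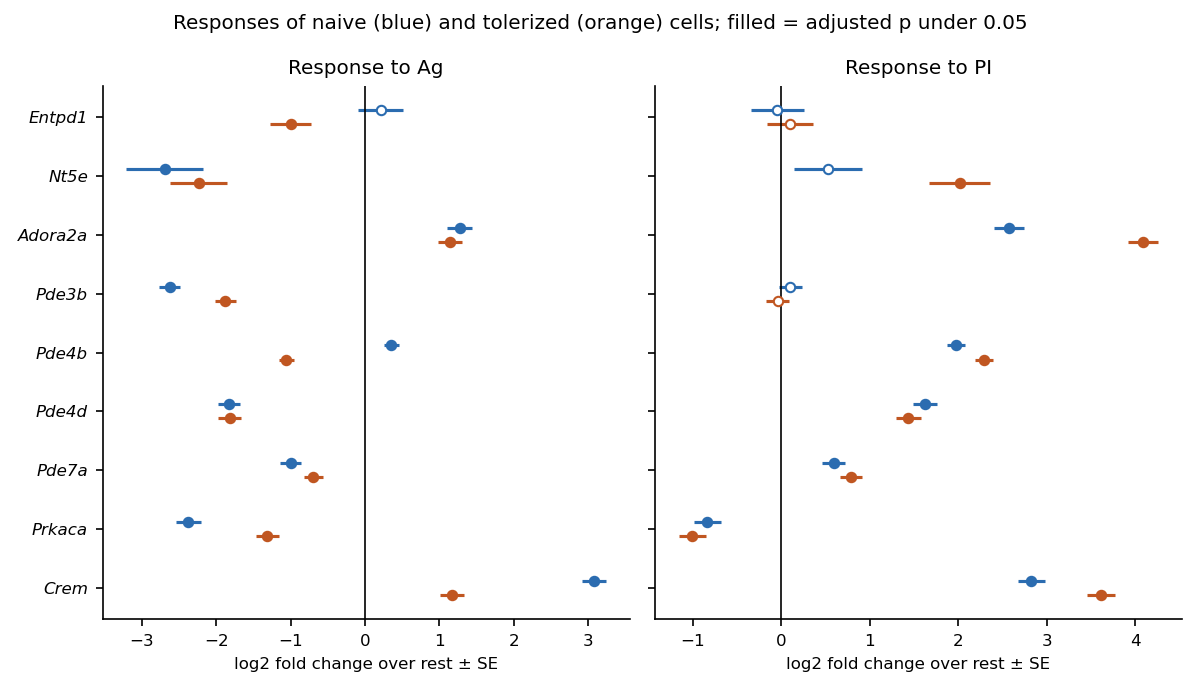
Log2 fold change over rest, with its standard error, after Ag (left) and PI (right) in naive (blue) and tolerized (orange) cells, with filled points called by edgeR. Pde4b lies on opposite sides of 0 after Ag (0.35 and -1.06), and Adora2a is further to the right in tolerized cells after PI (4.09 against 2.57).

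The response itself was compared between the states as an interaction, the tolerized response minus the naive one on the log2 scale. For Ag, 2 genes were higher and 3 lower, against 14.6% and 7.09% of all tested genes. In either direction these are 5, against 21.7%, of which 4 also had a fold of 2 and a mean count above 50, against 5.27%. Crem rose less in tolerized cells (difference -1.91 ± 0.22 SE, edgeR adjusted p = 1.13e-05), and Pde4b moved in opposite directions (-1.41 ± 0.14, adjusted p = 2.22e-07). Prkaca and Pde3b fell less in tolerized cells, by 1.07 and 0.75 (adjusted p = 0.00169 and 0.00938). Within libraries free of Y-linked reads, Crem and Pde4b were called, and Prkaca and Pde3b gave 0.87 and 0.87 (adjusted p = 0.0579 and 0.054). Entpd1 gave -1.20 (adjusted p = 0.0482), a call lost in 10 of 12 fits with 1 library left out, where it ranged from -1.68 to -0.93.

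The Ag responses of Nt5e, Adora2a, Pde4d and Pde7a were not called different between the states. The differences were 0.46 (95% interval -0.99 to 1.90), -0.14 (-0.64 to 0.37), 0.01 (-0.46 to 0.48) and 0.31 (-0.10 to 0.72). For Pde7a the difference was called without NAg replicate 1 (0.50, adjusted p = 0.0209).

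For PI, edgeR called 2 genes higher and 0 lower, against 12.7% and 7.52% of all tested genes (4 and 0 at an unadjusted p under 0.05, and 2 and 0 by DESeq2). In either direction the share was 20.2%, and 1 gene also had a fold of 2 and a mean count above 50, against 3.21%. Adora2a rose more in tolerized cells (difference 1.52 ± 0.23 SE, edgeR adjusted p = 0.000184), and so did Crem (0.79 ± 0.21, adjusted p = 0.015). Y-linked reads separate NPI from all N0 libraries but TPI from only part of T0. Effects of sex and of cell state thus cannot be fully told apart in these differences. With myeloid and erythroid scores the differences were 1.75 and 0.19 (adjusted p = 0.0605 and 0.869), and with a score of Y-linked genes Crem gave 0.70 (adjusted p = 0.0622). The larger response of Nt5e in tolerized cells was not called (1.48, 95% interval 0.36 to 2.60, adjusted p = 0.0616), but was called without N0 replicate 2 (1.83, adjusted p = 0.0144). The intervals of the other genes were -0.72 to 1.01 for Entpd1, -0.54 to 0.26 for Pde3b, 0.02 to 0.61 for Pde4b, -0.60 to 0.23 for Pde4d, -0.20 to 0.60 for Pde7a and -0.63 to 0.29 for Prkaca.

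Across the 18 libraries, Nt5e and Pde7a had the most alike patterns among the 9 genes. Of 10360 genes with a mean normalized count of at least 50, Pde7a was the nearest to Nt5e by the Pearson correlation of log2 normalized counts (r = 0.98), and Enpp1 was the second (r = 0.98) and also the second nearest to Pde7a. Enpp1 encodes a pyrophosphatase at the cell surface that makes AMP from ATP, and was at 200.1 ± 34.7 in N0, 329 ± 38.7 in T0 and 519 ± 74.9 in TPI (SD, n = 3). The nearest genes to the others were Hip1 and Il10ra for Entpd1 (r = 0.91 and 0.90), Cd44 and Tcfe3 for Adora2a (0.99 and 0.98), Lef1 and Ppm1b for Pde3b (0.98 and 0.97), and Gpr132 and Grap for Pde4b (both 0.99). They were Sgms1 and Uvrag for Pde4d (both 0.98), Idh2 and Coro1a for Prkaca (both 0.98), and Fasl and Ppp1r16b for Crem (both 0.99). These correlations rest on 6 groups of 3 libraries and so mainly on the differences between groups.

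**Figure D4:**
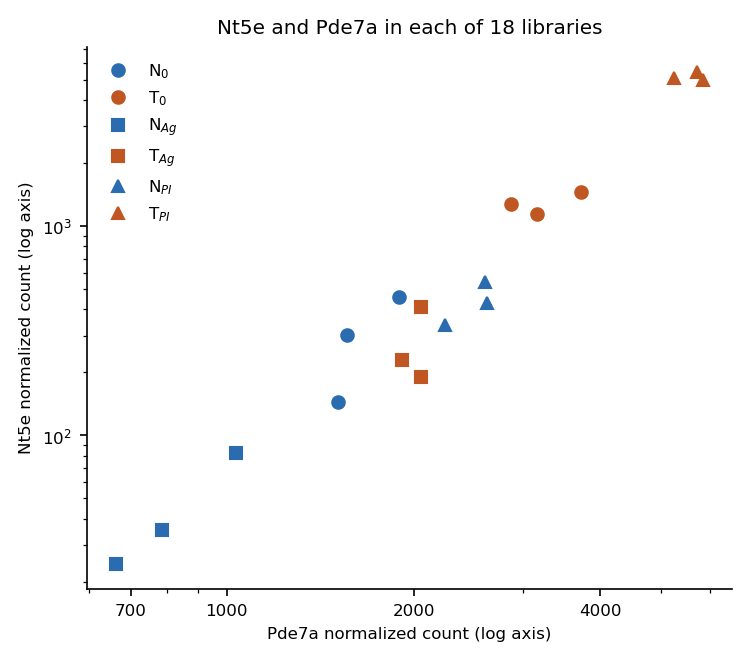
Normalized counts (log axes) of Nt5e and Pde7a, each point 1 of the 18 libraries, with colour for the cell state (naive blue, tolerized orange) and shape for rest (circle), Ag (square) and PI (triangle). The libraries run from NAg at the lower left to TPI at the upper right, with r = 0.98 on the log2 scale.

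Of 101 further genes of the pathway, 87 passed the limit on low counts. At rest, 15 were higher and 15 lower in tolerized cells (17.2% each, against 8.42% and 12% of all tested genes). After Ag, 28 were higher and 14 lower (32.2% and 16.1%, against 20.9% and 18.5%), and after PI, 22 and 24 (25.3% and 27.6%, against 18.2% and 19.7%). Their median log2 fold changes were 0.03, 0.13 and -0.06, beside -0.08, 0.01 and -0.04 over all tested genes. Within libraries free of Y-linked reads, 13 were called at rest and 38 after Ag, and with the myeloid and erythroid scores 0 and 5. Of the 87, 15 were called with an absolute log2 fold change of at least 1 and a mean count above 50 in the higher group in a comparison of the states. Of those, 14 are described by role. Beside each group of genes, the shares called higher stand against 8.42%, 20.9% and 18.2% of all tested genes at rest, after Ag and after PI, and the shares called lower against 12%, 18.5% and 19.7%.

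**Figure D5:**
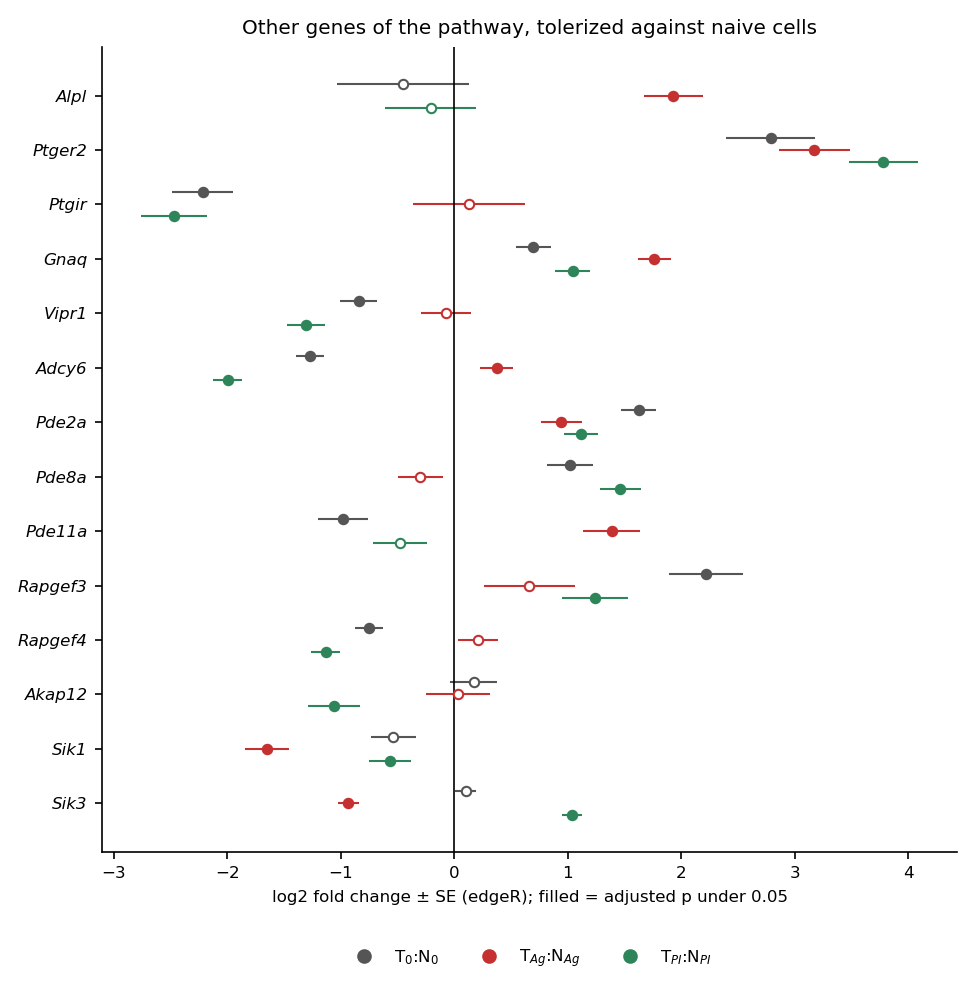
Log2 fold change, with its standard error, of 14 further pathway genes in tolerized against naive cells, at rest (grey), after Ag (red) and after PI (green), with filled points called by edgeR. Ptger2 lies at 2.79 to 3.78 in all 3 comparisons, and Adcy6 lies left of 0 at rest and after PI and right of 0 after Ag.

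Among 16 tested receptors and G proteins, 2, 5 and 5 were higher and 3, 2 and 4 lower at rest, after Ag and after PI (shares of 12.5%, 31.2% and 31.2% higher and 18.8%, 12.5% and 25% lower). At rest, these shares are near those of all tested genes. Ptger2, the EP2 receptor through which prostaglandin E2 raises cAMP, was at 49.0 ± 20.1 in N0 and 343 ± 166 in T0 (log2 fold change 2.79 ± 0.39 SE, edgeR adjusted p = 0.00034). It reached 2323 ± 248 in TAg against 258 ± 89.5 in NAg, and 5495 ± 574 in TPI against 399 ± 17.5 in NPI. Gnaq, the alpha subunit of a G protein that acts through phospholipase C, was higher in all 3 comparisons (0.70, 1.76 and 1.04). Ptgir, the prostacyclin receptor, fell from 83.4 ± 3.71 in N0 to 17.8 ± 0.672 in T0 (log2 fold change -2.22 ± 0.27 SE, edgeR adjusted p = 3.87e-06). Vipr1, a receptor of vasoactive intestinal peptide, was lower at rest and after PI (-0.84 and -1.30).

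Of 7 tested adenylyl cyclases, 2, 1 and 2 were lower at rest, after Ag and after PI, and 3 were higher after Ag (shares of 0%, 42.9% and 0% higher and 28.6%, 14.3% and 28.6% lower). edgeR called 0 higher at rest and after PI (0 and 1 at an unadjusted p under 0.05, 0 and 0 by DESeq2). Adcy6 was at 1523 ± 112 in N0 and 631 ± 68.5 in T0 (log2 fold change -1.27 ± 0.13 SE, edgeR adjusted p = 1.29e-06) and at 1373 ± 215 in NPI and 343 ± 36.7 in TPI (log2 fold change -2.00 ± 0.13 SE, edgeR adjusted p = 4.86e-10). After Ag it was slightly higher in tolerized cells (log2 fold change 0.38 ± 0.15 SE, edgeR adjusted p = 0.0485). Among 24 tested genes of nucleotide and adenosine turnover, 6, 11 and 8 were higher and 4, 1 and 5 lower (shares of 25%, 45.8% and 33.3% higher and 16.7%, 4.17% and 20.8% lower). The share lower after PI is near that of all tested genes. Alpl, a phosphatase that can also make adenosine, was at 30.9 ± 5.39 in NAg and 118 ± 10.9 in TAg (log2 fold change 1.93 ± 0.26 SE, edgeR adjusted p = 2.89e-06) and at 3.34 ± 3.16 in N0 and 2.43 ± 0.587 in T0.

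Of 11 other phosphodiesterases, 3, 2 and 2 were higher at rest, after Ag and after PI, and 1 was lower at rest and 1 after PI (shares of 27.3%, 18.2% and 18.2% higher and 9.09%, 0% and 9.09% lower). The shares higher after Ag and PI are near those of all tested genes. After Ag, edgeR called 0 lower (1 at an unadjusted p under 0.05, 0 by DESeq2). Pde2a, which cGMP stimulates, was at 782 ± 106 in N0 and 2419 ± 535 in T0 (log2 fold change 1.63 ± 0.15 SE, edgeR adjusted p = 4.08e-06) and was also higher after Ag and PI (0.94 and 1.12). Pde8a, a cAMP-specific enzyme, was higher at rest and after PI (1.02 and 1.47), and gave -0.30 after Ag (adjusted p = 0.257). Pde11a was lower at rest and higher after Ag (-0.98 and 1.39).

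Downstream of cAMP, 4 of 17 tested genes of PKA, its anchors and the EPACs were higher in each comparison, and 3, 3 and 6 lower (shares of 23.5%, 23.5% and 23.5% higher and 17.6%, 17.6% and 35.3% lower). After Ag, both shares are near those of all tested genes. The EPACs are exchange factors that cAMP activates directly. At rest, Rapgef3 rose from 11.1 ± 2.02 in N0 to 52.1 ± 8.48 in T0 (log2 fold change 2.22 ± 0.32 SE, edgeR adjusted p = 3.72e-05), and Rapgef4 fell from 1617 ± 357 to 962 ± 80.4 (log2 fold change -0.75 ± 0.12 SE, edgeR adjusted p = 0.000229). Akap12, a scaffold that binds PKA, was lower after PI (-1.05). Among 12 genes of the CREB family, their coactivators and kinases that act on these, 2, 7 and 6 were lower at rest, after Ag and after PI, and 3 were higher after Ag and 3 after PI (shares of 0%, 25% and 25% higher and 16.7%, 58.3% and 50% lower). At rest, edgeR called 0 higher (1 at an unadjusted p under 0.05, 0 by DESeq2). The salt-inducible kinase Sik1, itself a target of CREB, was lower after Ag and PI (-1.65 and -0.56). Sik3 was lower after Ag and higher after PI (-0.93 and 1.04, adjusted p = 2.24e-08 and 3.72e-09), the same directions as Crem.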

How the data were processed

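The 18 RNA-seq libraries were made after depletion of ribosomal RNA from splenic CD4+ T cells purified with a magnetic kit. The authors aligned paired-end reads to mm9 with TopHat2 2.1.1, counted them per Ensembl gene with HTSeq 0.9.1 and deposited raw counts for each library, without normalization. The submitters' processing notes also name DESeq2 1.18 and edgeR 3.24. An annotation of that build (NCBIM37) gave symbols and positions for 37205 of 37991 identifiers.

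Counts were analysed with R 4.3.3 and edgeR 4.0.16: TMM scaling, a model with a mean for each of 6 groups, robust quasi-likelihood F tests and Benjamini-Hochberg adjustment over 17240 genes with a mean normalized count of at least 3 in a group. Interactions were contrasts of the same model. Standard errors were derived from the F statistics, and the scripts were tested on simulated data. RPKM used merged exon lengths. Alternatives were DESeq2 1.42.0 (test or size factors), no limit on low counts, only the groups compared, a replicate block, marker scores, a minimum fold of 2 with a mean count above 50, and each library left out. The genes, lists and tests were chosen with earlier results of these data known. Further pathway genes were named at an adjusted p under 0.05, an absolute log2 fold change of at least 1 and a mean above 50, and for each of the 9 genes the 2 nearest by correlation. Of the 15 pathway genes so named, 1 is not reported here.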

Additional observations from a re-analysis of the deposited data

Results flagged for a closer look

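The response to Ag differed between naive and tolerized cells for 5 of the 9 genes (21.7% of all tested genes) and the response to PI for 2 (20.2%, near the share of the 9), by a test of the difference itself, the interaction in edgeR. After Ag, the tolerized minus the naive log2 response was -1.91 for Crem, -1.41 for Pde4b, 1.07 for Prkaca, 0.75 for Pde3b and -1.20 for Entpd1 (adjusted p = 1.13e-05, 2.22e-07, 0.00169, 0.00938 and 0.0482). After PI, it was 1.52 for Adora2a and 0.79 for Crem (adjusted p = 0.000184 and 0.015). Crem is the only one of the 9 with a difference in both responses, with opposite signs, and the PI call was lost with the myeloid and erythroid scores (0.19, adjusted p = 0.869) and with the Y-linked score (0.70, adjusted p = 0.0622). The PI call of Adora2a was lost with the myeloid and erythroid scores too (1.75). Within libraries free of Y-linked reads, the Ag calls of Prkaca and Pde3b were lost. The call of Entpd1 was lost in 10 of 12 fits with a library left out and in 7 of 10 alternatives. Groups of 3 libraries were not screened for single libraries far from the others.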

How the results depend on the processing

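With 3 libraries a group, small changes and low counts, such as those of Entpd1, limit the precision. Of 747 alternative values of the 9 genes' fold changes, 698 kept direction and side of the threshold, 28 lost the call, 1 gained it and 20 changed sign. Of 594 values with a library left out, 551, 19, 5 and 19 did so. The largest shifts came with the myeloid and erythroid scores, which separate T0 from N0. The cause of the changes was not tested.

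With these scores, 0 of the 9 genes and 0 further pathway genes were called by edgeR in T0:N0 (2 lower of the 9, and 6 higher and 8 lower pathway genes, at an unadjusted p under 0.05), 2 and 5 in TAg:NAg, 4 and 24 in TPI:T0, and in the PI interaction 0 (3 higher and 1 lower at an unadjusted p under 0.05) and 4. Signs turned in T0:N0 for Crem (0.39), Nt5e (-0.16), Pde4b (0.17) and Pde4d (0.0275), in TAg:NAg for Entpd1 (-0.65) and Prkaca (-0.20), for Entpd1 in NAg:N0 (-0.001) and NPI:N0 (0.47), in TPI:T0 for Pde3b (0.33) and Prkaca (0.53), in the Ag interaction for Pde4d (-0.26), and in the PI interaction for Pde3b (0.0834), Pde4b (-0.0275) and Prkaca (0.81).

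With a score of Y-linked genes, 19 pathway genes were called in T0:N0 and 1 of the 9 genes in the PI interaction. In libraries without Y-linked reads, 13 pathway genes were called in T0:N0, and 2 of the 9 and 20 pathway genes in the Ag interaction. With a minimum fold of 2 and a mean above 50, 3 of the 9 genes were called in T0:N0, 4 in TAg:NAg and 1 in the PI interaction. The pathway genes called were then 7 in T0:N0, 6 in TAg:NAg, 11 in TPI:NPI, 35 in NAg:N0, 30 in TAg:T0, 23 in NPI:N0, 30 in TPI:T0, 13 in the Ag interaction and 2 in the PI interaction. The Ag interaction of Pde4d, near 0, was -0.0335 with DESeq2's test, -0.0345 with its size factors, -0.19 with a B cell score and -0.0535 with the Y-linked score. Without both libraries of high erythroid sums, Pde3b gave 0.0109 in TPI:T0. The last setting and that of libraries without Y-linked reads were chosen after seeing the data.

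With a library left out, 6 to 7 of the 9 genes were called in T0:N0, 8 in TAg:NAg, 6 to 7 in TPI:NPI, 8 to 9 in NAg:N0, 9 in TAg:T0, 6 to 7 in NPI:N0, 7 in TPI:T0, 4 to 5 in the Ag and 2 to 3 in the PI interaction. For the pathway genes the ranges were 19 (without N0 replicate 2) to 33, 32 to 44, 40 to 43, 61 to 65, 55 to 60, 50 to 56, 58 to 62, 25 to 33 and 15 to 22. Signs turned only for fold changes not called in the full data: Entpd1 in NAg:N0 (range -0.10 to 0.66), NPI:N0 (-0.34 to 0.41), TPI:T0 (-0.11 to 0.25) and the PI interaction (-0.34 to 0.41), Pde3b in NPI:N0 (-0.0473 to 0.28) and TPI:T0 (-0.12 to 0.0134), and Adora2a (-0.26 to 0.056) and Pde4d (-0.17 to 0.19) in the Ag interaction. Entpd1 in NAg:N0 was called without N0 replicate 1 (0.66), and Pde3b in NPI:N0 without it too (0.28).

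Libraries share replicate numbers across groups, but the labels do not say that these numbers pair samples, so the main model had no block. Correlations of same-numbered libraries between groups, after removal of group means, ranged from -0.50 to 0.23. With the replicate block, Entpd1 in NPI:N0 changed sign to 0.0094, uncalled in both fits, and the number of the 9 genes called moved in no comparison by over 1.5 times.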
